A study of Mus musculus with 17 samples.

Results

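Messenger RNA was sequenced from the brown fat, which makes heat, of 17 mice with or without a functional Noct gene, at 22 °C or at 6 °C. Described here are 10 genes that hold back or shape cyclic AMP (cAMP) signalling: the phosphodiesterases Pde4a, Pde4b, Pde4d, Pde3a and Pde3b, the feedback genes Crem, Sik1 and Rgs2, and the protein kinase A (PKA) genes Prkar2b and Pkia. They were taken by name from the 21982 genes of the deposited count table, by a rule that uses no measured value, but the list was drawn up with earlier results of these data known. All 10 were found and all 10 were among the 12486 genes that passed the filter on low counts. The design asks how 4 h of cold changes the tissue and whether loss of Noct, the gene of the clock-controlled protein Nocturnin, alters that change.

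The mice, labelled C57BL/6, were littermates that were housed singly and without food during the experiment. The groups were 4 wild types (Noc+/+) at 22 °C with 3 females, 5 wild types at 6 °C with 4 females, 4 knockouts (Noc-/-) at 22 °C with 1 female, and 4 knockouts at 6 °C with 1 female. Each library came from a different mouse, so p values measure the spread between animals. Labelled ages ran from 11.14 to 23.57 with no unit, while the design text gives young adults of 10 to 20 weeks. The labels do not say which part of Noct was removed, and they name no promoter or tissue that limits the deletion.

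Library totals ran from 18410748 to 47598200 counts, of which mitochondrially encoded genes took 43.4 to 57.3%. The cold wild types had scaling factors of 0.888 to 1.06 against 1.09 to 1.15 in the wild types at 22 °C. All 9 brown adipocyte markers were measured and together stood at 10467 to 15679 CPM (counts scaled to library size and composition). Noct itself was at 91.5 to 457 CPM in the wild types and 3.37 to 34.2 CPM in the knockouts, with no overlap. The summed level of 10 skeletal muscle genes ran from 0.657 to 1076 CPM over the libraries, and 6 of the 10 were at 0 in 1 library. In bulk tissue, fewer cells of a type and less RNA per cell cannot be told apart.

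In brown adipocytes, noradrenaline binds beta-adrenergic receptors, which act through the G protein Gs on adenylyl cyclase to make cAMP. cAMP releases the catalytic subunits of PKA from their regulatory subunits, and PKA then turns on lipolysis, heat production and transcription through CREB. Phosphodiesterases end the signal by hydrolysing cAMP, and several genes that CREB turns on, among them the ICER form of Crem, Sik1 and PDE4 forms, act back on the same pathway.

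CREB binds the cAMP response element (CRE), whose full form is TGACGTCA and whose core is TGACG, read on both strands. RefSeq start sites (GRCm38.p6) were held for 5 of the 10 genes, Pde4a, Pde4b, Pde4d, Rgs2 and Prkar2b, with 11 start sites in all, whereas Pde3a, Pde3b, Crem, Sik1 and Pkia had no entry. In the 200 bases before these starts the full element was found at 0 of the 11, and 1.47% of all 32851 such windows held it. The core, which also lies within the full element, was found at 3 of the 11, and 15.7% of all windows held it. The windows shown are those with a core, and that of Pde4d, the gene with the largest rise of the 10, which held none. Capitals mark the core.
Rgs2: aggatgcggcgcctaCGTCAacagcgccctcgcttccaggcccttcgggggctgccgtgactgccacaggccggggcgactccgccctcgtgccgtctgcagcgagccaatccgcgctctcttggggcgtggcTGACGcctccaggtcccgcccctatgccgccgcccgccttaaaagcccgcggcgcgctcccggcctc
Pde4a: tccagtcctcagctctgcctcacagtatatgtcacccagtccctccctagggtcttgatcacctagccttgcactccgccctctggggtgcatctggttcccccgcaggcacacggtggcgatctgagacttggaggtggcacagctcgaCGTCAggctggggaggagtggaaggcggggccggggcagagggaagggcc
Pde4b: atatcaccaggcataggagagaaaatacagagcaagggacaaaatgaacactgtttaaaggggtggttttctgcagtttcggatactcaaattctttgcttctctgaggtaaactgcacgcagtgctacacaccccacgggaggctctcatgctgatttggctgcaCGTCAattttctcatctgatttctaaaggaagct
Pde4d: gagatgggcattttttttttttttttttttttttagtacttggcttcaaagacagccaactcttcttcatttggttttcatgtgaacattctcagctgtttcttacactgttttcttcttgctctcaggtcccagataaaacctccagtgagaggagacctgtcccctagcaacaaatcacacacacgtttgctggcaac

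The Rgs2 window, at chr1:144004150-144004349 on the minus strand, held cores 185 and 67 bases before the start. The Pde4a window, at chr9:21183901-21184100 on the plus strand, belongs to 1 of 3 start sites and held a core 50 bases before it. The Pde4b window, at chr4:102421355-102421554 on the plus strand, belongs to 1 of 4 start sites and held a core 34 bases before it. The Pde4d window, at chr13:108653977-108654176 on the plus strand, is the single start held for a gene known to have many. These matches are descriptions of letters in short windows and were not set against binding data.

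The 10 genes spanned a wide range of levels. On the RPKM scale, which is counts scaled to exon length and library total, Prkar2b was highest with 318 ± 48.9 (SD over the 17 libraries). Pde3b followed with 48.7 ± 9.32, then Rgs2 with 29.6 ± 11.6, Sik1 with 21.2 ± 7.68 and Pde4d with 18.8 ± 7.79. Rgs2, Sik1 and Pde4d did not differ beyond their spread. Pde4a was at 6.43 ± 2.16 RPKM, Pde3a at 2.64 ± 0.672, Crem at 2.22 ± 0.769, Pkia at 1.31 ± 1.02 and Pde4b at 0.694 ± 0.197, and within these last 4 genes each neighbour pair overlapped in its spread. Prkar2b thus stood above all the others. Pde3b had the next highest mean, but its libraries, from 33.6 RPKM up, overlapped those of Rgs2, which reached 53.0 RPKM.

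**Figure D1:**
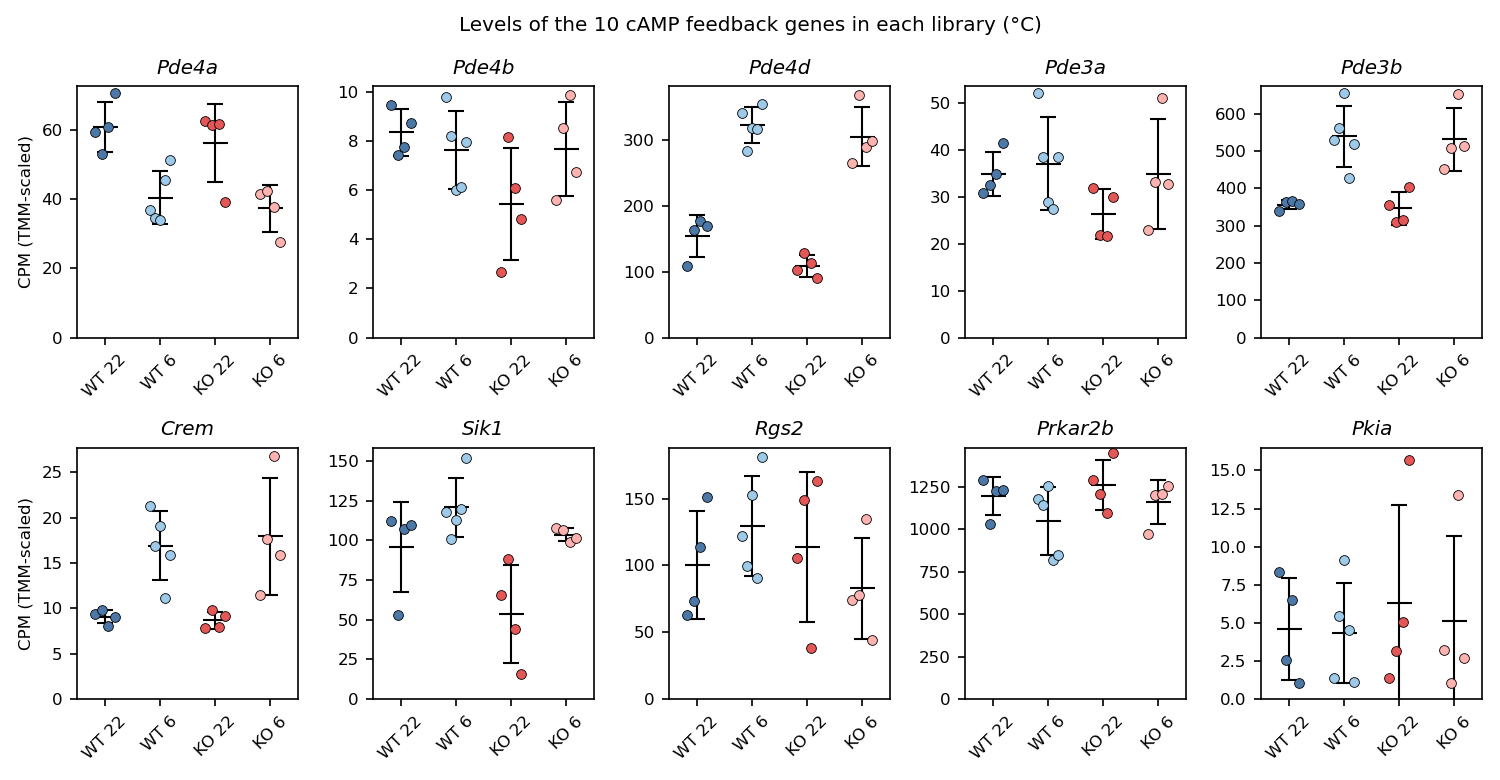
Level of each of the 10 genes in every library (y axes, CPM; x axis, genotype and temperature), with 1 point per mouse, horizontal marks for group means and bars for ± SD, drawn from an axis that starts at 0 and cuts the lower Pkia bars. Pde4d, Pde3b and Crem lie higher at 6 °C than at 22 °C in both genotypes without overlap, and Pkia spreads from 1.04 to 15.7 CPM within and across groups.

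Cold raised Pde4d, Pde3b and Crem and lowered Pde4a in wild types. Of the 10 genes, 3 rose and 1 fell, where 14.3% of all tested genes rose and 13.3% fell (27.6% in all). In knockouts 4 rose and 1 fell, where 11.6% of all tested genes rose and 10% fell (21.6% in all). The genes called were Pde4d, Pde3b, Crem and Pde4a in both genotypes and Sik1 in knockouts. The median log2 fold change of the 10 genes was 0.22 in wild types, where that of all tested genes was −0.03, and 0.46 in knockouts, where that of all genes was −0.02. The groups did not overlap for 4 of the 10 genes in wild types, against 25.8% of all tested genes, and for 4 in knockouts, against 20.2%. Beside these changes, the summed brown adipocyte markers ran from 10467 to 11792 CPM in wild types at 22 °C and 12546 to 15118 CPM at 6 °C, and from 10555 to 14163 and 12429 to 15679 CPM in knockouts. Of these 9 markers, 3 rose and 2 fell in wild types, and 2 rose and 0 fell in knockouts. Their median log2 change was 0.04 in wild types and 0.06 in knockouts. Ucp1 and Fabp4 weigh most in the sum, with medians of 6048 and 4264 CPM over all libraries. Of 6 smooth muscle and pericyte markers, 2 fell and 0 rose in each genotype, yet the median log2 change of the 6 was 0.20 in wild types and 0.07 in knockouts. The sum of the 6 ran from 95.2 to 132 and 66.0 to 102 CPM in wild types and from 96.5 to 133 and 86.5 to 103 CPM in knockouts. The sum of 5 Schwann cell markers ran from 85.4 to 119.9 CPM at 22 °C and 139.7 to 168 CPM at 6 °C in wild types, without overlap, and from 95.2 to 126 and 117 to 174 CPM in knockouts. Of these 5, 1 rose and 0 fell in each genotype, and their median log2 change was 0.01 in wild types and −0.05 in knockouts. The sum of 5 lymphocyte markers was near 0 throughout, from 0.756 to 1.22 CPM at 22 °C and 0.113 to 0.553 CPM at 6 °C in wild types, again without overlap, and from 0.625 to 1.51 and 0.234 to 1.08 CPM in knockouts. The other lists of markers overlapped between temperatures in both genotypes. The part of these cell types in the results was not tested.

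**Figure D2:**
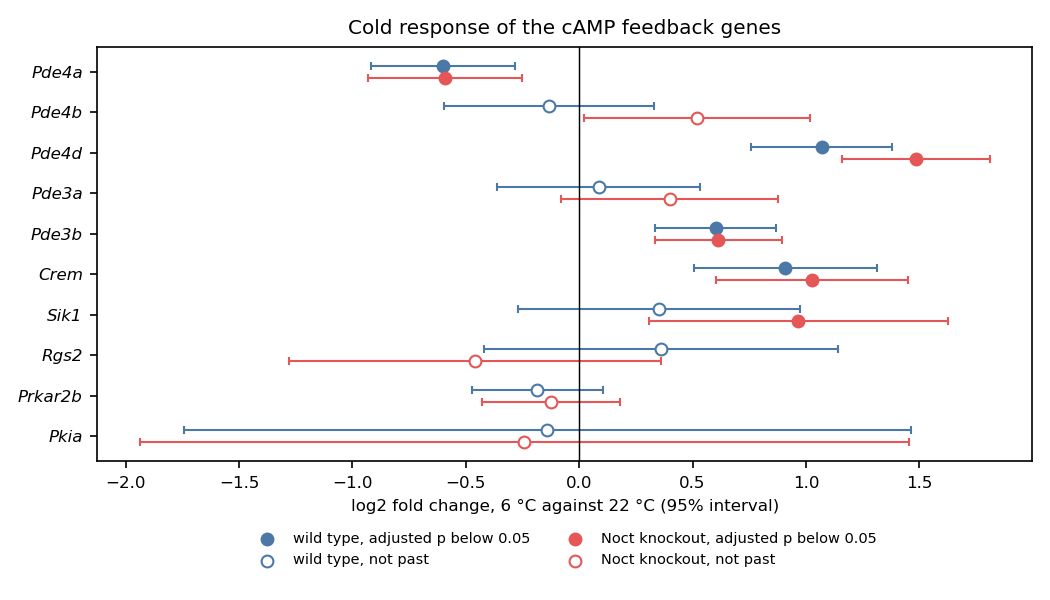
Log2 fold change of each gene at 6 °C against 22 °C (x axis) with its 95% interval, for wild types and knockouts, from edgeR's quasi-likelihood fit; filled points have an adjusted p below 0.05 over all 12486 genes. Pde4d, Pde3b and Crem rose and Pde4a fell in both genotypes, whereas Pde3a, Rgs2, Prkar2b and Pkia have intervals that span 0 in both.

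Pde4d, a cAMP-specific phosphodiesterase of the rolipram-sensitive PDE4 family, lies on chromosome 13 (GRCm38, 108449948 to 109953461, plus strand). Its level in wild types was 108, 163, 177 and 169 CPM at 22 °C and 340.5, 283, 317, 316 and 354 CPM at 6 °C. In knockouts it was 102, 129, 113 and 90.8 CPM at 22 °C and 265, 367, 288 and 298 CPM at 6 °C. All 9 cold libraries were above all 8 libraries at 22 °C. The fold change was 2.10 in wild types (log2 1.07 ± 0.15 SE, adjusted p = 9.63e-05 by edgeR's quasi-likelihood test with Benjamini-Hochberg adjustment, as for every adjusted p below unless another test is named) and 2.80 in knockouts (log2 1.49 ± 0.15, adjusted p = 1.89e-05). Isoforms of Pde4d cannot be told apart in gene counts. Gm27572 and Gm28016 overlap it on the opposite strand, and Rps3a3, Mir1904 and Mir582 on the same strand. The sources used here give no strand setting for the counting, so how reads in these overlaps were counted is not known.

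Pde4a, another PDE4 gene, went the other way. It lies on chromosome 9 (21165714 to 21213248, plus strand). In wild types it was 59.3, 53.0, 60.7 and 70.5 CPM at 22 °C and 36.8, 34.6, 34.1, 45.4 and 51.4 CPM at 6 °C. Every cold wild type was below every wild type at 22 °C. Pde4a fell by 0.60 on the log2 scale in wild types (SE 0.15, adjusted p = 0.00735). In knockouts it was 62.5, 61.2, 61.7 and 39.2 CPM at 22 °C and 41.6, 42.2, 37.7 and 27.7 CPM at 6 °C. The groups overlapped there through 1 knockout at 22 °C, replicate 4, and the fall was 0.59 on the log2 scale (log2 −0.59 ± 0.16, adjusted p = 0.0142). That call ended without knockout replicate 2 at 22 °C (log2 −0.51, adjusted p = 0.0584), without replicate 3 (log2 −0.50, adjusted p = 0.0574) and in the majority sex of each genotype (log2 −0.59, adjusted p = 0.0710).

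Pde4b, a PDE4 gene best known from immune cells, was the lowest of the 10 in RPKM, although Pkia was lower in CPM. Pde4b stood at 9.48, 7.42, 7.74 and 8.74 CPM in wild types at 22 °C and 9.80, 8.21, 6.01, 6.11 and 7.95 CPM at 6 °C. In knockouts it was 2.67, 8.15, 6.07 and 4.83 CPM at 22 °C and 5.58, 8.51, 9.87 and 6.73 CPM at 6 °C. Groups overlapped in both genotypes, and neither cold change passed (log2 −0.13 ± 0.22, adjusted p = 0.698 in wild types and log2 0.52 ± 0.24, adjusted p = 0.133 in knockouts). Without knockout replicate 2 at 22 °C, the second of these was log2 0.76 with adjusted p = 0.0388.

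The opposite changes of Pde4d and Pde4a shifted the makeup of the PDE4 transcripts. The shares of summed Pde4a, Pde4b, Pde4c and Pde4d RPKM were compared by exact two-sided permutation tests over mice, with p values adjusted over 10 such share and ratio tests, all chosen after the values had been seen. Pde4d held 58.1 ± 5.78% (SD, n = 4) in wild types at 22 °C and 80.1 ± 1.76% (n = 5) at 6 °C (exact permutation p = 0.0159, adjusted p = 0.0476). In knockouts it held 52.7 ± 3.12% (n = 4) and 80.6 ± 3.16% (n = 4), with an exact permutation p of 0.0286, the smallest that 4 against 4 can give, and adjusted p = 0.0476. The lowest cold library held 77.1% and the highest library at 22 °C 62.6%, so the temperatures did not overlap in either genotype. Pde4a held 36.5 ± 5.05% at 22 °C and 15.7 ± 1.98% at 6 °C in wild types, and 42.3 ± 4.07% and 15.6 ± 2.80% in knockouts, with the same 4 p values. Pde4a and Pde4d make up most of the same sum, so the Pde4a tests largely repeat those of Pde4d. Every adjusted permutation p of 0.0476 among the share tests depends on counting both. Scaling between libraries does not enter these shares. With 1 library left out, the adjusted p ran up to 0.0595 in wild types and 0.0907 in knockouts, and the differences stayed between 19.3 and 29.1 percentage points for Pde4d.

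**Figure D3:**
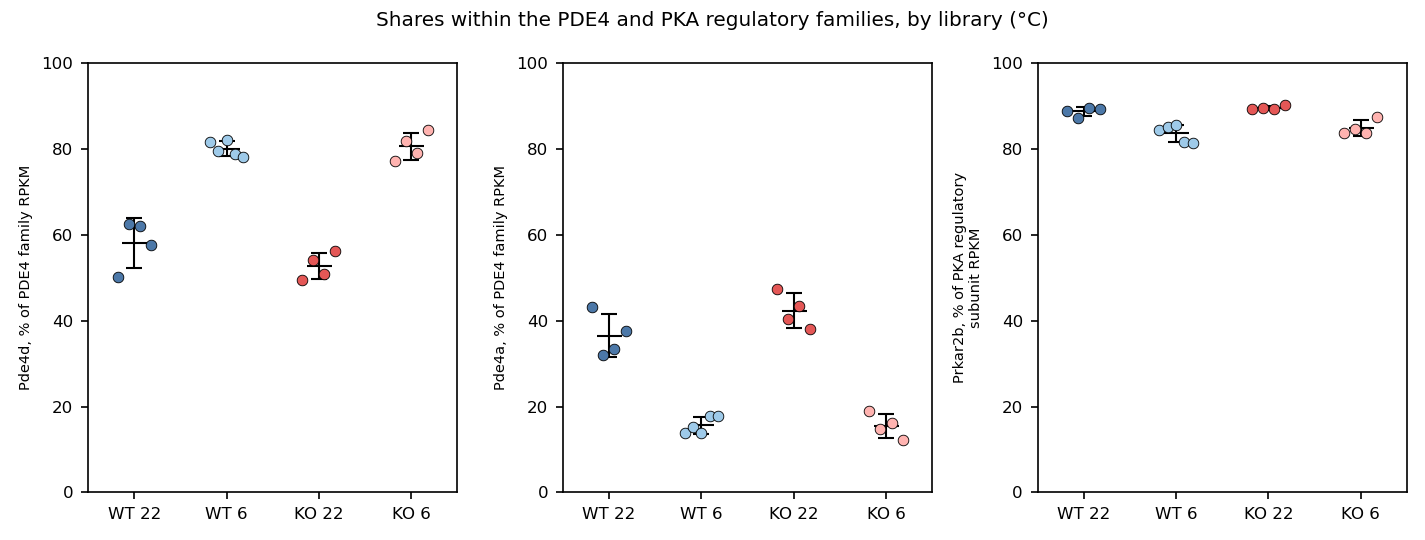
Share of Pde4d and of Pde4a in the summed RPKM of the PDE4 genes, and of Prkar2b in that of the PKA regulatory subunits (y axes, percent, from 0 to 100), by genotype and temperature, with 1 point per mouse, group means and ± SD bars. The Pde4d share runs from 49.4 to 62.6% at 22 °C and from 77.1 to 84.4% at 6 °C, and the Prkar2b share is lower at 6 °C.

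Pde3b, the phosphodiesterase through which insulin lowers cAMP in adipocytes, lies on chromosome 7 (114415281 to 114539251, plus strand). It stood at 340.0, 363, 366 and 357 CPM in wild types at 22 °C and at 531, 563, 657, 428 and 519.5 CPM at 6 °C. The coefficient of variation among the wild types at 22 °C was 3.24%, the lowest of the 40 groups of values of the 10 genes. In knockouts Pde3b was 354, 309.7, 316 and 405 CPM at 22 °C and 451, 508, 652 and 515 CPM at 6 °C. Every cold library was above every library at 22 °C, and the rise was log2 0.60 ± 0.13 in wild types (fold 1.52, adjusted p = 0.00236) and log2 0.61 ± 0.13 in knockouts (fold 1.53, adjusted p = 0.00341). Pde3b held 93.5 ± 0.764% of the PDE3 transcripts at 22 °C and 95.3 ± 1.26% at 6 °C in wild types, a difference that did not pass (exact permutation p = 0.0635, adjusted p = 0.0907).

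Pde3a, the other PDE3 gene and the main one in heart and platelets, lies on chromosome 6 (141249269 to 141507448, plus strand). It was 30.8, 32.6, 34.8 and 41.5 CPM in wild types at 22 °C and 52.1, 38.5, 29.0, 27.4 and 38.5 CPM at 6 °C. In knockouts it was 31.9, 22.0, 21.6 and 30.0 CPM at 22 °C and 23.0, 33.1, 51.1 and 32.8 CPM at 6 °C. The temperatures overlapped in both genotypes, with log2 0.09 ± 0.21 (adjusted p = 0.799) in wild types and log2 0.40 ± 0.23 (adjusted p = 0.234) in knockouts. Its 95% interval in wild types ran from −0.36 to 0.53, so a rise as large as that of Pde4d lies outside it.

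Crem, which encodes CREB family activators and, from an internal promoter, the repressor ICER, lies on chromosome 18 (3266048 to 3337748, minus strand). Wild types were at 9.43, 9.77, 8.1 and 9.0 CPM at 22 °C and at 21.3, 16.9, 19.1, 11.2 and 15.9 CPM at 6 °C. Knockouts were at 7.84, 9.78, 7.98 and 9.12 CPM at 22 °C and at 11.5, 17.6, 26.8 and 15.9 CPM at 6 °C. All 9 cold libraries lay above all 8 at 22 °C, although the cold groups spread more, with coefficients of variation of 22.6 and 35.8% against 7.93 and 10.7%. Crem rose by log2 0.91 ± 0.19 in wild types (fold 1.88, adjusted p = 0.00233) and by log2 1.03 ± 0.20 in knockouts (fold 2.04, adjusted p = 0.00176). The counts do not separate ICER from the other Crem transcripts, and Gm6225 lies on the opposite strand.

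Sik1, a kinase that PKA signalling induces and that keeps the CREB coactivators of the CRTC family out of the nucleus, lies on chromosome 17 (31844250 to 31855804, minus strand). It was at 113, 53.2, 107 and 109 CPM in wild types at 22 °C and at 118, 101, 113, 119.7 and 152 CPM at 6 °C. These groups overlapped and the change did not pass (log2 0.35 ± 0.29, adjusted p = 0.403). In knockouts Sik1 was 65.9, 88.4, 44.3 and 16.2 CPM at 22 °C and 108, 107, 98.9 and 101 CPM at 6 °C, with coefficients of variation of 57.4 and 4.03%. Every cold knockout was above every knockout at 22 °C, and the rise was log2 0.97 ± 0.31 (fold 1.95, adjusted p = 0.0350). This call ended with scaling to library totals (log2 0.87, adjusted p = 0.0892), in the majority sex of each genotype (log2 1.04, adjusted p = 0.0819) and without any one of knockout replicates 1 and 3 at 22 °C and 2, 3 and 4 at 6 °C (log2 0.93 to 0.98, adjusted p from 0.0524 to 0.0782). Without knockout replicate 4 at 22 °C, the lowest library, the change was log2 0.67 with adjusted p = 0.0366. The difference between the cold responses of the genotypes did not pass (log2 0.61 ± 0.43, adjusted p = 1.00), so Sik1 is not shown to respond differently in knockouts.

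Rgs2, which speeds the shut-off of G protein signals and also binds some adenylyl cyclases, lies on chromosome 1 (143999338 to 144004161, minus strand). Wild types were at 63.1, 73.5, 114 and 151 CPM at 22 °C and at 122, 99.6, 153, 90.8 and 181 CPM at 6 °C. Knockouts were at 105, 149, 38.5 and 163 CPM at 22 °C and at 74.3, 77.6, 135 and 44.5 CPM at 6 °C. Mice of 1 group thus differed widely, from 38.5 to 163 CPM among the knockouts at 22 °C, and the groups overlapped. The cold change was log2 0.36 ± 0.37 in wild types (adjusted p = 0.501) and log2 −0.46 ± 0.39 in knockouts (adjusted p = 0.451). The difference between those changes was log2 −0.82 ± 0.54 (adjusted p = 1.00).

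Prkar2b, the RII beta regulatory subunit that dominates PKA in adipose tissue, lies on chromosome 12 (31958476 to 32061296, minus strand). Wild types were at 1292, 1034, 1224 and 1230.0 CPM at 22 °C and at 1181, 1142, 1259, 821 and 852 CPM at 6 °C. Knockouts were at 1290.0, 1208, 1099 and 1451 CPM at 22 °C and at 971, 1205, 1207 and 1258 CPM at 6 °C. Groups overlapped, and the change was log2 −0.19 ± 0.14 (adjusted p = 0.336) in wild types and log2 −0.12 ± 0.14 (adjusted p = 0.610) in knockouts. With library totals as scaling it was log2 −0.40 in wild types (adjusted p = 0.0211), and limma on log2 RPKM gave log2 −0.40 (adjusted p = 0.0214 with a pseudocount of 1). That scaling moves the median of all genes from −0.03 to −0.23.

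Among regulatory subunits, however, the share of Prkar2b was lower in the cold, and this share does not depend on scaling. Of the summed RPKM of Prkar1a, Prkar1b, Prkar2a and Prkar2b it held 88.7 ± 1.08% at 22 °C and 83.6 ± 1.99% at 6 °C in wild types (exact permutation p = 0.0159, adjusted p = 0.0476). In knockouts it held 89.6 ± 0.464% and 84.8 ± 1.83% (exact permutation p = 0.0286, adjusted p = 0.0476). Both adjusted p values depend on the Pde4a tests, which largely repeat those of Pde4d, being counted. With 1 library left out, the difference stayed between −5.67 and −4.36 percentage points, and the adjusted p ran up to 0.0595 in wild types and 0.0907 in knockouts, where 3 mice against 4 cannot give an exact permutation p below 0.0571. Prkar1a, the RI alpha subunit, rose from 41.0 ± 2.92 to 48.6 ± 3.22 RPKM in wild types (log2 0.45 ± 0.11, adjusted p = 0.00542) and from 35.1 ± 3.76 to 47.8 ± 3.90 RPKM in knockouts (log2 0.52 ± 0.11, adjusted p = 0.00343). These RPKM means are scaled to library totals, whereas the log2 changes are also scaled to library composition, so they are on unlike scales. The wild-type call of Prkar1a ended with library totals as scaling. The ratio of summed regulatory to summed catalytic subunit RPKM was 4.2 ± 0.508 at 22 °C and 4.74 ± 1.44 at 6 °C in wild types, a difference that did not pass (exact permutation p = 0.540, adjusted p = 0.540).

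Pkia, an inhibitor that binds the free catalytic subunit of PKA, lies on chromosome 3 (7366669 to 7445366, plus strand), 43.8 Mb from the deleted Noct gene, and is known as a gene of skeletal muscle and brain. Wild types were at 8.31, 2.60, 6.5 and 1.08 CPM at 22 °C and at 1.42, 5.48, 9.12, 4.55 and 1.13 CPM at 6 °C. Knockouts were at 1.38, 3.14, 5.08 and 15.7 CPM at 22 °C and at 3.24, 1.04, 13.4 and 2.72 CPM at 6 °C. Groups overlapped, with coefficients of variation of 72.6 to 109.8% within them, and the cold change was log2 −0.14 ± 0.76 (adjusted p = 0.914) in wild types and log2 −0.24 ± 0.81 (adjusted p = 0.882) in knockouts.

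Pkia levels moved with transcripts of skeletal muscle. The summed level of the 10 skeletal muscle genes was 671, 56.6, 630.4 and 4.83 CPM in the wild types at 22 °C and 23.8, 458, 864, 391 and 33.6 CPM at 6 °C. In knockouts it was 34.0, 219.7, 449 and 816 CPM at 22 °C and 281, 0.657, 1076 and 325 CPM at 6 °C. Across the 17 libraries, log2 Pkia CPM and log2 summed muscle CPM had Pearson's r = 0.87 and Spearman's rho = 0.98, each with a permutation p of 1e-05, the smallest that 100000 resamples can give, and an adjusted p of 0.0001 over the 10 relations computed, 1 per gene. Without the 2 libraries farthest from the median, r was 0.91. Among the 11 libraries above 100 CPM of muscle transcripts r was 0.94, and among the 6 below it r was 0.64 (exact permutation p = 0.179). None of the other 9 genes showed a relation that passed, with adjusted permutation p of 0.660 or more and r between −0.27 and 0.08. None of the 10 muscle genes passed in either cold comparison by edgeR, and 0 of them had an unadjusted p below 0.05. Where in the dissected tissue the muscle transcripts came from was not tested.

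**Figure D4:**
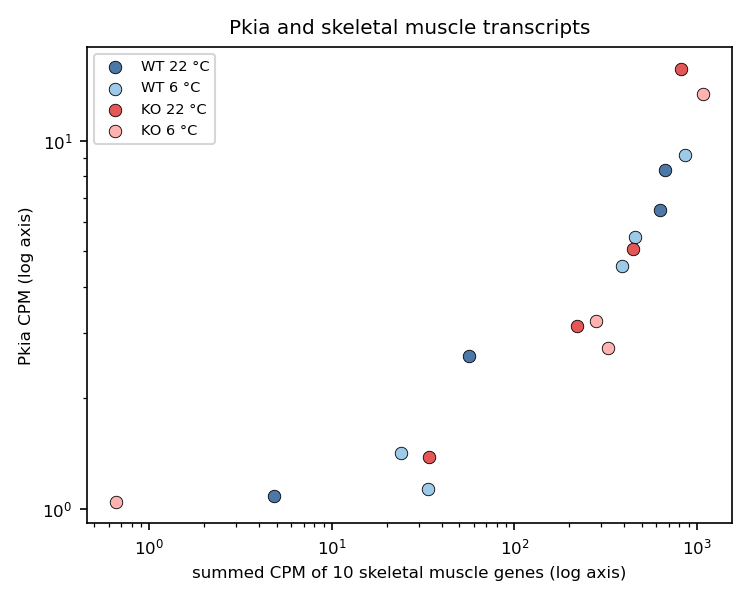
Pkia level (y axis, CPM, log axis) against the summed level of 10 skeletal muscle genes (x axis, CPM, log axis), with 1 point per mouse and colours for genotype and temperature. Libraries with more muscle transcripts generally have more Pkia within each of the 4 groups, from 1.04 CPM at 0.657 CPM of muscle transcripts to 15.7 CPM at 816.

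None of the 10 genes differed by genotype past the threshold. At 22 °C, 0.016% of all tested genes passed and 0 of the 10 did by edgeR, limma or DESeq2, while 486 of all genes and 2 of the 10 had an unadjusted p below 0.05 by edgeR. These 2 were Pde4b, lower in knockouts by log2 −0.88 ± 0.27 (unadjusted p = 0.00440, adjusted p = 0.998), and Pde4d, lower by log2 −0.53 ± 0.16 (unadjusted p = 0.00446, adjusted p = 0.998). Their genotypes overlapped at 22 °C, since the lowest wild type for Pde4d was 108 CPM and the highest knockout 129 CPM. At 6 °C, 0.04% of all genes and 0 of the 10 passed by the 3 tools, and by edgeR 393 of all genes and 0 of the 10 had an unadjusted p below 0.05. The difference between the cold responses passed in 0.00801% of all genes and in 0 of the 10 by the 3 tools, with 310 of all genes and 0 of the 10 at an unadjusted p below 0.05 by edgeR. The largest of the 10 in that comparison were Rgs2 with log2 −0.82 ± 0.54, Pde4b with log2 0.65 ± 0.32, Sik1 with log2 0.61 ± 0.43 and Pde4d with log2 0.42 ± 0.21, all with adjusted p = 1.00. For Pde4d the 95% interval of the difference was −0.02 to 0.85, and for Pde3b, whose cold responses were log2 0.60 and 0.61, it was −0.37 to 0.40. Sex was unevenly spread over genotype and entered the fit as a covariate.

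Lists of other pathway genes are given by their counts, to be read against the 27.6% of all tested genes called in wild types (14.3% up, 13.3% down) and the 21.6% called in knockouts (11.6% up, 10% down). In these lists too, RPKM means are scaled to library totals only, unlike the log2 changes and calls. Of the 13 other phosphodiesterase genes tested, 3 rose and 2 fell in wild types, and 1 rose and 0 fell in knockouts, the latter below the share of all genes. Pde7b, a cAMP-specific enzyme, went from 4.24 ± 0.804 to 7.24 ± 1.51 RPKM in wild types (log2 0.99 ± 0.20, adjusted p = 0.00189) and from 2.87 ± 0.181 to 7.48 ± 2.12 RPKM in knockouts (log2 1.44 ± 0.21, adjusted p = 0.000218). Pde4c rose in wild types (log2 0.90 ± 0.19, adjusted p = 0.00236) at a low level of 0.414 ± 0.0687 to 0.671 ± 0.0961 RPKM, and in knockouts gave log2 0.51 ± 0.20 (adjusted p = 0.0855). Pde9a, which hydrolyses cyclic GMP, fell by 1.08 on the log2 scale in wild types (SE 0.28, adjusted p = 0.00856).

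Of 6 other PKA subunit and inhibitor genes, 1 rose in wild types and 3 rose in knockouts, with Prkar1a in both. The 11 A-kinase anchoring proteins, which tether PKA and often phosphodiesterases to places in the cell, moved both ways, with 2 up and 3 down in wild types and 2 up and 2 down in knockouts. Akap12 rose from 4.35 ± 1.69 to 13.7 ± 3.09 RPKM in wild types (log2 1.90 ± 0.18, adjusted p = 6.92e-06) and by log2 1.86 ± 0.18 in knockouts (adjusted p = 1.7e-05). Akap7 fell from 12 ± 2.22 to 6.15 ± 1.30 RPKM in wild types (log2 −0.76 ± 0.15, adjusted p = 0.00169) and fell by 1.01 on the log2 scale in knockouts (adjusted p = 0.000415). Akap5 fell in both genotypes at low levels, from 0.311 ± 0.135 RPKM in wild types at 22 °C to 0.0999 ± 0.0262 RPKM at 6 °C.

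The 2 Epac genes, whose products sense cAMP beside PKA, both rose in wild types and 1 did in knockouts. Rapgef3 gave log2 0.57 ± 0.17 (adjusted p = 0.0187) and 0.92 ± 0.18 (adjusted p = 0.00173), and Rapgef4 log2 0.61 ± 0.21 (adjusted p = 0.0353) and 0.24 ± 0.22 (adjusted p = 0.495). Against the 14.3% of all tested genes that rose in wild types and 11.6% in knockouts, 3 of 10 CREB factors, coactivators and their kinases rose. In each genotype 3 rose and 0 fell. They were Sik3, a relative of Sik1 (log2 0.80 ± 0.16, adjusted p = 0.00163 in wild types), the coactivator Crebbp (log2 0.58 ± 0.12, adjusted p = 0.00208) and Atf1 (log2 0.36 ± 0.11, adjusted p = 0.0239). Of 9 other RGS genes, 0 passed by edgeR in either genotype, 0 had an unadjusted p below 0.05, and DESeq2 called 0 in wild types and 1 in knockouts. The most abundant of them, Rgs5, was at 83.6 ± 8.80 and 83.5 ± 4.2 RPKM in wild types at 22 °C and 6 °C.

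Upstream of the 10 genes, 3 of 15 receptor, Gs and adenylyl cyclase genes rose and 2 fell in wild types, and 2 rose and 2 fell in knockouts. Adrb1, the beta-1 receptor, went from 5.42 ± 0.517 to 2.34 ± 0.540 RPKM in wild types, Adcy9 from 4.64 ± 1.32 to 1.80 ± 0.390 RPKM, and Adcy3 from 36.4 ± 7.24 to 55.2 ± 11.6 RPKM. Of 7 receptor kinase and arrestin genes, only Arrb1 passed by edgeR, falling by 0.98 on the log2 scale in wild types (SE 0.21, adjusted p = 0.00269). With library totals as scaling, the wild-type counts were 0 of 2 Epac genes, 0 of 6 other PKA genes and 4 of 7 receptor kinase and arrestin genes. Of 16 other cAMP-responsive genes, 6 rose and 0 fell in each genotype. The largest of these rises in wild types were Ppargc1a (log2 2.86 ± 0.35, adjusted p = 3.96e-05), Atf3 (log2 2.71 ± 0.53, adjusted p = 0.00135) and Dio2 (log2 2.17 ± 0.22, adjusted p = 1.61e-05). The median log2 change of the 16 genes was 0.04 in wild types and 0.47 in knockouts. Genes not called went both ways in wild types, and Egr1 among them gave log2 −2.12 ± 0.80 (adjusted p = 0.0576).

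The 10 genes did not move as 1 block across the 17 libraries. As a description over libraries that share both treatments, Pde4d correlated with Pde3a (r = 0.74 of log2 CPM), Sik1 (0.65) and Pde3b (0.61), and Crem ran against Pde4a (−0.74). The genes with the most similar patterns among 7822 compared were Gadd45g (r = 0.96) and Pom121 (0.92) for Pde4d, Gnl2 and Ppp2ca (both 0.98) for Pde3b, Man2a1 (0.95) and Gtpbp4 (0.93) for Crem, and Smarcd2 (0.93) and Pcgf2 (0.92) for Pde4a. For Prkar2b they were Abracl (0.95) and Rnft1 (0.94), and for Pkia they were Tpm2 (0.95) and Tpm1 (0.94), tropomyosins of muscle fibres. Likeness was lower for Sik1, with Hspbp1 (0.82) and Ppp1r10 (0.81), for Pde4b, with Acvr1 (0.80) and Cbll1 (0.79), and for Rgs2, with Zfp260 (0.77) and Pcf11 (0.76). Pde3a was most like Ccl25 (0.91) and Pcf11 (0.91).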

How the data were processed

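The authors deposited whole-number counts by gene symbol and, in a second table, RPKM, which equal those counts scaled to gene length and library total. The aligner STAR, the counter HTSeq and the builds mm10 and GRCm38.p6 are named in the submitters' processing notes, with no version, annotation or strand setting. Positions came from GENCODE vM21. In R 4.3.3, edgeR 4.0.16 kept genes with filterByExpr, scaled by TMM and fitted a quasi-likelihood model to all 17 libraries with the 4 groups and the labelled sex. P values were adjusted over 12486 genes at a threshold of 0.05. The members and lists were chosen with earlier results of these data known. Named were all 10 members, Noct, from each pathway list up to 3 passing genes with the largest wild-type cold change, or the most abundant where none passed, and for each member the 2 genes with the highest correlation. Genes named beyond this were chosen after their values were seen. The procedure was run on counts simulated from its own fitted dispersions, with genes changed in cold wild types only and no sex effect. Such counts cannot show how it handles sex effects. Alternatives were other scalings, filters, covariates, a replicate block, the majority sex, DESeq2 1.42.0, limma 3.58.1 on log2 RPKM plus 1 or 0.1, and leaving out each library.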

Additional observations from a re-analysis of the deposited data

Results flagged for a closer look

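Of the 40 groups of values of the 10 genes, 2 held a library whose gap to the others was larger than Dixon's 95% critical value, and chance gives about 1 in 20. For Pde4a, knockout replicate 4 at 22 °C was at 39.2 CPM and the other 3 at 61.2 to 62.5 CPM. The same library had the lowest Sik1, 16.2 CPM, the highest mitochondrial share, 57.3%, and the highest Pkia, 15.7 CPM. For Sik1, wild-type replicate 2 at 22 °C was at 53.2 CPM and the other 3 at 107 to 113 CPM. Without it the wild-type cold change of Sik1 was log2 0.19 with adjusted p = 0.702 by edgeR. The part of library quality in these values was not tested.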

How the results depend on the processing

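Over 1320 alternative values of the 10 genes, 0 reversed, 10 lost a call, 4 gained one, and 95 changed sign with neither value past the threshold. Pde4d, Pde3b and Crem kept their calls in both genotypes, and Pde4a in wild types, under every alternative run. Members past the threshold in the knockout cold response, 5 in the fit reported, were 3 in the majority sex and 3 to 5 with 1 library left out, the lowest without knockout replicate 3 at 22 °C. All genes past it there, 2697, were 1647 in the majority sex and 1961 to 2834 with 1 library left out. For genotype at 22 °C the count of all genes was 2, and 8 with DESeq2, 4 with no sex term, 4 with limma at either pseudocount and 1 to 3 with 1 library left out. At 6 °C it was 5, and 3 with library totals, 23 with DESeq2, 3 with sex and age, 3 with limma at a pseudocount of 1 and 3 to 5 with 1 library left out. The difference between the cold responses passed in 1 gene, and in 9 with DESeq2. The cause was not tested. Library totals lowered the share of cold calls that were higher from 51.8 to 23.0% in wild types and from 53.6 to 43.9% in knockouts. The labels do not say whether same-numbered mice shared a litter or day. Correlations of same-numbered deviations ran from −0.37 to 0.37 between temperatures and between genotypes. Between temperatures within genotype, 4 of 16 libraries correlated best with their own number. These correlations cannot settle whether the samples were paired. The replicate block gave 4 members in wild types, 5 in knockouts and 0 genes for genotype at 22 °C. In the majority-sex alternative the wild types were all female and the knockouts all male. Genotype and sex cannot be told apart there, so no genotype value was fitted. Pkia, Pde4b and Crem had the lowest mean CPM of the 10 genes, and the part of low counts in their precision was not tested.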
